A study of Mus musculus with 2 samples.

Results

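Fndc5, Lrtm1, Mrgprh, Pla2g5, Plekhh1, Smco1, Adora2a and 3425401B19Rik are 8 of the 19465 genes with probes in a spatial expression assay of mouse heart, listed by symbol as genes strongly lost from the adult heart after induction of TOP2B. They were chosen by their low counts in the transgenic section against the control section, so the difference between the sections is given here as a description with counting intervals and not as a test. In these files 7 of the 8 were lower in the transgenic section. The exception was Adora2a, which goes against the label and was 1.38-fold higher.

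The 8 genes belong to different families. Fndc5 encodes the membrane protein from which the myokine irisin is cleaved, and its transcription in muscle is linked to the coactivator PGC-1α. 3425401B19Rik, for which RefSeq gives the synonym Cefip, encodes a cardiac Z-disc protein that binds FHL2 and acts on calcineurin signaling. Lrtm1 and Smco1 encode membrane proteins, the former with leucine-rich repeats and the latter with a coiled coil. Plekhh1 encodes a protein with pleckstrin homology and FERM domains, Pla2g5 a secreted phospholipase A2, Mrgprh an orphan receptor of the Mas-related family and Adora2a an adenosine receptor that raises cyclic AMP through a stimulatory G protein.

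The control section came from a heart carrying α-MHC-MerCreMer+/−, a tamoxifen-activated Cre driven in cardiomyocytes by the α-MHC promoter. The transgenic section came from a heart carrying the same Cre together with hTOP2B LSL/−, human TOP2B under the CAG promoter behind a floxed stop at the Rosa26 locus. Both mice received a single intraperitoneal dose of tamoxifen at 80 mg/kg, and the study's methods give an age of 6 weeks for the single-dose model with siblings of the same age as controls. The time between tamoxifen and tissue collection is not stated in the labels. Each condition was 1 section of 1 heart, so genotype, animal, plane of section and library cannot be told apart. Intervals below are 95% counting intervals, which leave out the spread between animals.

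The control section held 14376300 UMIs in 1256 spots and the transgenic section 12953389 UMIs in 924 spots, with medians of 11335.5 and 14531 UMIs per spot. Every capture area carries the same position barcodes, and 725 of them lay under tissue in both sections. Detached from the main body lay 11 control spots, with at most 1681 UMIs each, and 2 transgenic spots, with at most 1 UMI. Of the 5 atrial markers, Sln and Bmp10 were near 0, with 16 and 9 UMIs in the control and 10 and 9 in the transgenic section. The other atrial markers had more, with 1137 and 590 UMIs for Kcnj3, 158 and 328 for Myl4 and 125 and 409 for Myl7. The 9 measured genes listed as ventricular cardiomyocyte markers made up 7.42% and 5.15% of UMIs. Fibroblast markers made up 0.163% and 0.452% and erythroid markers 0.0362% and 0.345%. In the transgenic section 5 of 8 fibroblast and 4 of 4 erythroid markers were at least 2-fold higher. The share was 13.7% over the 15236 genes with at least 20 UMIs over both sections. Between the sections the fibroblast markers Col1a1 and Col1a2 had log2 ratios of 2.68 and 2.66, and Lum, Dpt and Gsn 0.42, 0.06 and 0.00. Of the 9 ventricular markers 4 were at least 2-fold lower, against 5.61% of those genes. A spot covers several cells of different types, so fewer cells of a type and less RNA per cell cannot be told apart. Mouse Top2b, whose probes read the endogenous gene, was at 106 and 102 CPM (UMIs per 1000000 of the section) and does not check the human transgene.

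The transmembrane and muscle-linked genes with the most UMIs were all far lower in the transgenic section. Fndc5 had 4193 UMIs in the control section, or 292 CPM (283 to 301), and 233 in the transgenic section, or 18.0 CPM (15.8 to 20.5). Its log2 ratio was -4.02 (-4.22 to -3.83), the second lowest of the 8021 genes that reached 200 UMIs in either section. Lrtm1 went from 3625 UMIs, or 252 CPM (244 to 260), to 256 UMIs, or 19.8 CPM (17.4 to 22.3). That is a log2 ratio of -3.67 (-3.86 to -3.49), with 7.84% of the control level left. The Z-disc gene 3425401B19Rik went from 1522 UMIs, or 106 CPM (101 to 111), to 157 UMIs, or 12.1 CPM (10.3 to 14.2), a log2 ratio of -3.13 (-3.37 to -2.89).

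The other 4 lower genes had fewer UMIs and wider intervals. Smco1 went from 374 to 44 UMIs, or from 26.0 CPM (23.4 to 28.8) to 3.40 CPM (2.47 to 4.56), and its log2 ratio of -2.94 (-3.42 to -2.48) lay just short of 8-fold. The receptor gene Mrgprh went from 307 to 23 UMIs, with a log2 ratio of -3.59 (-4.27 to -2.98). The phospholipase gene Pla2g5 went from 209 to 19 UMIs, with a log2 ratio of -3.31 (-4.07 to -2.63). Plekhh1 went from 182 to 10 UMIs, and its log2 ratio of -4.04 (-5.12 to -3.12) ran from -4.75 to -2.95 over the alternative scalings and sets of spots, the latter with 1 CPM added. Among 23 genes of retina, testis, pituitary, kidney and other tissues, counts ran from 0 to 22 UMIs in the control section and from 0 to 29 in the transgenic section, both highest for Gnat1, with medians of 8 and 7 UMIs. The transgenic counts of Mrgprh, Pla2g5 and Plekhh1 lay within this range of stray probe signal but above its median, and for Mrgprh the range rests on Gnat1, since Amelx came next with 19 UMIs. The counts of Fndc5, Lrtm1, Smco1 and 3425401B19Rik lay above the range.

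Of the 8 genes, 6 reached 200 UMIs in either section, and 5 of these were at least 8-fold lower, against 0.137% of all 8021 such genes. The choice of the genes fixes this count, and it bears likewise on their levels by quadrant, which are given as a description. The highest transgenic and the lowest control quadrant were at 28.4 and 279 CPM for Fndc5 and at 26.1 and 173 CPM for Lrtm1. The levels relative to the ventricular cardiomyocyte markers are likewise a description, since the genes were chosen for their low transgenic counts. Per 10000 UMIs of these markers, Fndc5 went from 39.3 to 3.49 UMIs and Lrtm1 from 34.0 to 3.84, which gives log2 ratios of -3.49 and -3.15. The smallest drop among the lower genes was that of Smco1, at -2.41. Between the sections the markers themselves ran from -1.77 for Mb to 1.52 for Des.

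**Figure D1:**
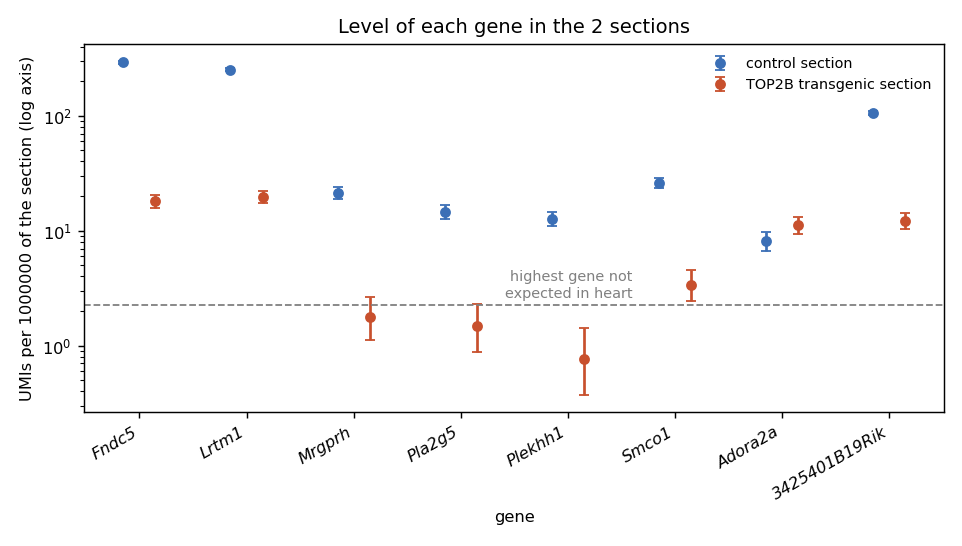
UMIs per 1000000 of the section (log axis) for each gene in the control section (blue) and the transgenic section (red), with bars for 95% exact Poisson intervals. All genes but Adora2a sit lower in the transgenic section, and Mrgprh, Pla2g5 and Plekhh1 sit there below the dashed line, the 2.24 CPM of the highest gene not expected in heart.

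Adora2a had few UMIs and did not share the loss. It had 116 UMIs in the control section, or 8.07 CPM (6.67 to 9.68), and 144 in the transgenic section, or 11.1 CPM (9.38 to 13.1). Its log2 ratio of 0.46 (0.10 to 0.83) was close to the median of 0.20 over the 15236 genes with at least 20 UMIs over both sections. The quadrants of the sections overlapped, with a highest control quadrant of 9.54 CPM and a lowest transgenic quadrant of 9.14 CPM. Both totals lay above the range of the stray probe signal.

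Counted in spots, Fndc5 went from nearly all spots of the control section to a minority of transgenic spots. The other genes had a UMI in fewer control spots. A lower share goes with a lower count and does not by itself show an uneven spread. Fndc5 had a UMI in 94.3% of control spots (92.8 to 95.5) and 20.5% of transgenic spots (17.9 to 23.2). For Lrtm1 the shares were 65.8% and 20.7%, for 3425401B19Rik 67.3% and 15.5%, and for Smco1 24.3% and 4.65%. With every spot thinned to the same depth the transgenic shares were 14.1%, 12.6%, 9.81% and 2.60%, and the control shares 90.7%, 62.5%, 55.6% and 19.2%. Mrgprh, Pla2g5 and Plekhh1 had a UMI in 21.6%, 15.2% and 13.1% of control spots and in 2.49%, 2.06% and 1.08% of transgenic spots. The highest gene not expected in heart had a UMI in 1.75% of control and 3.03% of transgenic spots, and the median of such genes was 0.637% and 0.758%, so the transgenic shares of those 3 genes lay between the median and the top of the background. Adora2a had a UMI in 8.68% and 14.2% of spots, or 6.45% and 8.27% after thinning.

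The promoters of the 3 genes with the most control UMIs are shown because these genes carry most of the lost signal. RefSeq sequences of the GRCm38.p6 build, which reach from 250 bases before to 50 after the start of the gene, were found for 7 of the 8 genes. Those printed here are Fndc5 at chr4:129136749-129137048 on the plus strand, Lrtm1 at chr14:29017958-29018257 on the plus strand and 3425401B19Rik at chr14:32685223-32685522 on the minus strand. Capitals mark matches, on either strand, to TATAAA, to the estrogen-related receptor element AAGGTCA, to the GATA element AGATAA, to the TEAD element CATTCC, to the NKX2-5 core AAGTG, to the E-box CANNTG, to the MEF2 consensus or to the CArG box of serum response factor.
Fndc5: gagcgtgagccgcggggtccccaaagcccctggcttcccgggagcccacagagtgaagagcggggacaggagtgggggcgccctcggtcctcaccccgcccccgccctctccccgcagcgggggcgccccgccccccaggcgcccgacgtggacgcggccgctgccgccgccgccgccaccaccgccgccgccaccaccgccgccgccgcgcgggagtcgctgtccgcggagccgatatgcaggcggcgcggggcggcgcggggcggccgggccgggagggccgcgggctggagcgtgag
Lrtm1: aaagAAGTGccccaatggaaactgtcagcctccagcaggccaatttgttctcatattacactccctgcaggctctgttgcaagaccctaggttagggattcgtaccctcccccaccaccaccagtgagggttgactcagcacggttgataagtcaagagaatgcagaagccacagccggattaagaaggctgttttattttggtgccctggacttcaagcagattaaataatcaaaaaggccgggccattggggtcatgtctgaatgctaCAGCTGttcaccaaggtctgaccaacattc
3425401B19Rik: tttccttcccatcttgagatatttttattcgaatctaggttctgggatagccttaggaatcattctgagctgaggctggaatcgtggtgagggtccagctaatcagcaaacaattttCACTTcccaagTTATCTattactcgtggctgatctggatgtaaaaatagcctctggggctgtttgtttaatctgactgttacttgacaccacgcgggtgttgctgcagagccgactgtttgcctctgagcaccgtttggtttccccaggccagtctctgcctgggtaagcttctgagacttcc

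The Fndc5 promoter was 82.3% G and C, against a median of 52.7% over 32851 mouse promoters, and held no match to the 8 motifs. The Lrtm1 promoter was 49.3% G and C and held 1 AAGTG, found in 46.4% of all promoters, and 1 CANNTG, found in 72.3%. The 3425401B19Rik promoter was 47.3% G and C and held 1 AAGTG and 1 AGATAA, the latter found in 11.2% of all promoters. No match overlapped another motif in these 3. Among the other promoters only that of Smco1 held AAGGTCA, which 4.72% of all promoters hold. CATTCC, in 14.7% of all promoters, stood in those of Mrgprh and Pla2g5, and the TATAAA, MEF2 and CArG motifs, in 13.6%, 3.19% and 1.63% of all promoters, stood in none. A match is only a run of letters and no evidence that a factor binds.

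Within the control heart, Lrtm1 had a spatial pattern unlike that of the other 7 genes. Its Moran's I, which measures the likeness of adjacent spots and was deposited for each gene, was 0.689, the highest of all 19219 genes scored in that section. The UMIs formed a broad ring in the outer wall and were nearly absent around the cavity. The distance of each spot from the outside of the section was therefore computed, in spot spacings, a measure chosen after the map had been seen. Within 2 spacings of the outside Lrtm1 was at 378 CPM (355 to 403), at 4 to 6 spacings at 339 CPM, at 8 to 10 spacings at 95.4 CPM and beyond 12 spacings at 5.97 CPM (2.40 to 12.3). The outermost spots were thus 63.4-fold (30.7 to 158) above the innermost. Fndc5 in the same bins was level, at 294 CPM outermost and 258 CPM innermost.

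**Figure D2:**
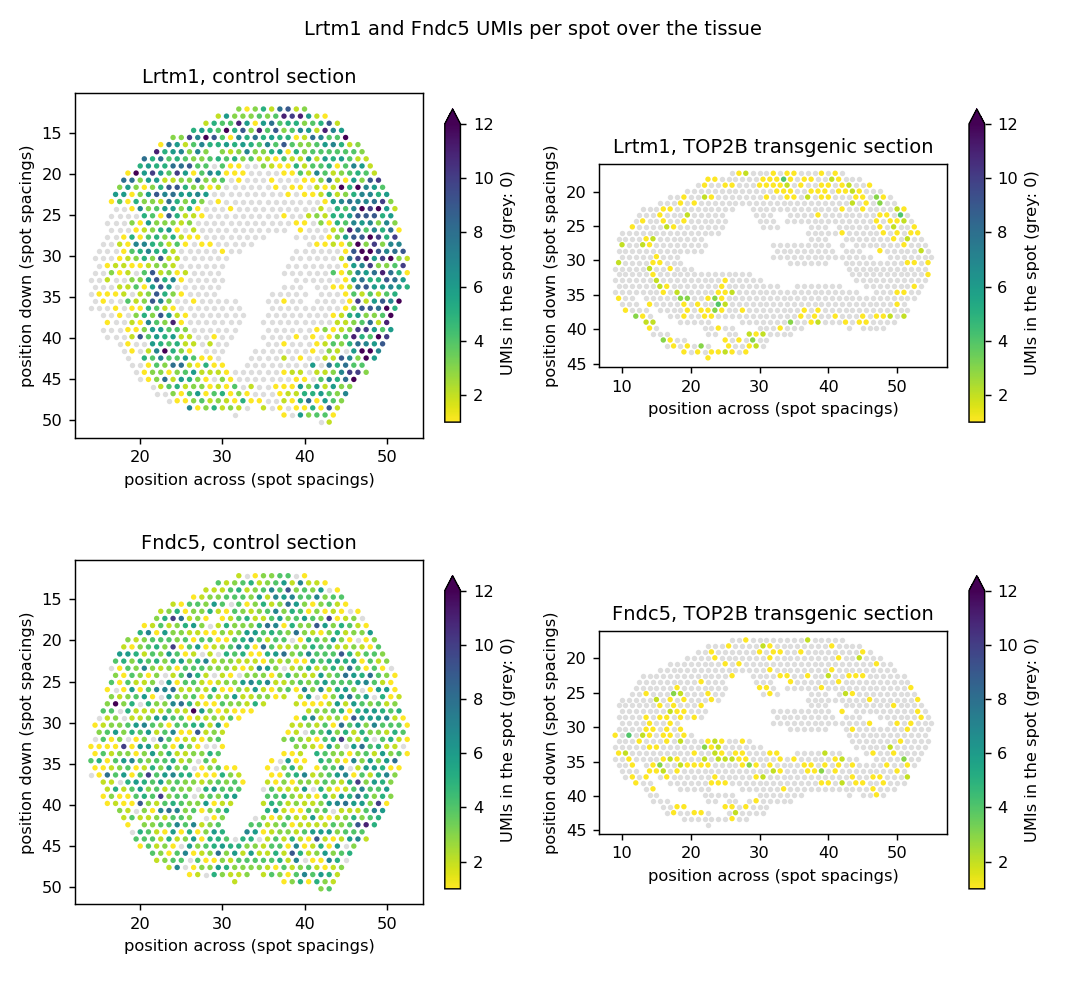
UMIs per spot of Lrtm1 (top) and Fndc5 (bottom) in the main body of the control section (left) and the transgenic section (right), with positions in spot spacings and spots at 0 in grey. In the control section Lrtm1 forms a ring near the outside, which leaves the left flank nearly free, and Fndc5 covers the whole wall. In the transgenic section both are seen in far fewer spots, with the level of Lrtm1 higher toward the outside.

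Divided by that distance into 3 zones of nearly equal numbers of spots, the control section held 1631 Lrtm1 UMIs in the outer zone, 1654 in the middle zone and 340 in the inner zone. The levels were 370, 312 and 72.9 CPM. The log2 ratio of outer over inner zone was 2.34 (2.17 to 2.52), the highest of all 7221 genes that reached 200 control UMIs. Only 4 of these genes, or 0.0554%, were at least 2-fold higher in the outer zone. The distance measure was chosen after the Lrtm1 map had been seen, so the rank of Lrtm1 is a description. After Lrtm1 came Fmo2, a flavin monooxygenase, at 1.69, the skeletal α-actin gene Acta1 at 1.37 and complement C3 at 1.25. At the other end lay Irx5, a transcription factor known for its gradient across the ventricular wall, at -1.76 and the potassium channel subunit Kcne1 at -1.50.

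Ventricular cardiomyocyte markers made up 7.43% of UMIs in the outer zone and 7.32% in the inner zone, and per UMI of these markers the Lrtm1 ratio was 2.32. Epicardial mesothelial markers had 146 UMIs in the outer zone and 26 in the inner zone. Skeletal muscle markers made up 0.0369% and 0.0145%, mostly Acta1, while the skeletal myosins Myh1 and Myh4 had 6 and 3 UMIs in the whole control section. Whether epicardial cells had a part in the Lrtm1 ring was not tested, and the ratio was 2.14 with the spots at the tissue edge left out.

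**Figure D3:**
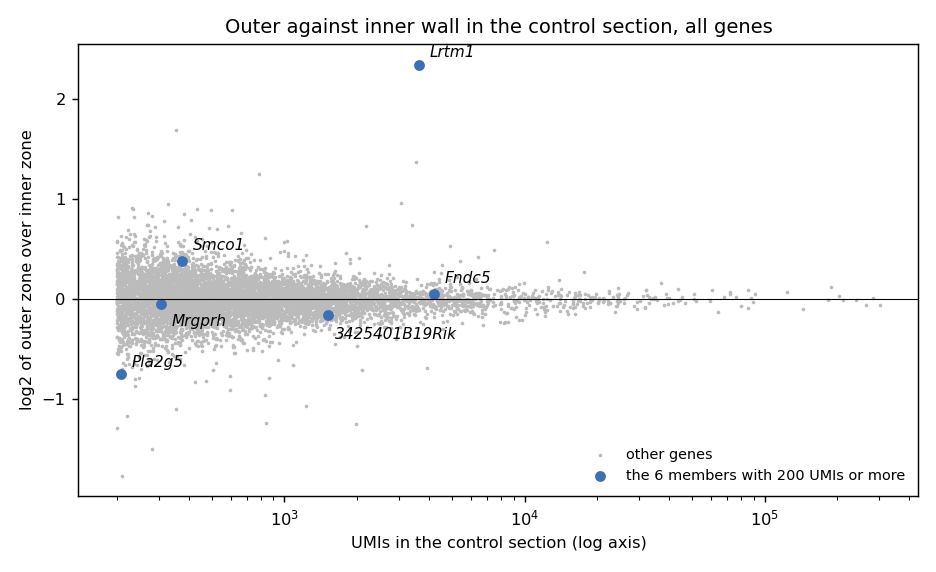
Log2 ratio of the outer over the inner zone of the control section against UMIs in that section (log axis), with 1 point for each of the 7221 genes and the 6 listed genes that reach 200 UMIs in blue. On this measure, chosen after its map was seen, Lrtm1 stands above all other genes at 2.34, and the other 5 lie between -0.75 and 0.38.

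The ring did not follow the outline all the way round. In 8 sectors of 45 degrees, the outer zone of the wall held 594 CPM (532 to 660) of Lrtm1 on the right, 564 CPM at the upper right and 550 CPM above. On the left the outer zone held 37.5 CPM (23.2 to 57.3), in 14 of 51 spots, and the middle zone 237 CPM (200 to 278), so that the ring ran deeper there and left the flank outside it free. Below it thinned out, with 163 CPM (131 to 199) in the outer and 44.6 CPM (28.8 to 65.8) in the middle zone. Fndc5 in the outer zone was at 250 CPM (210 to 295) on the left and 317 CPM (272 to 366) on the right. Ventricular markers made up 7.34% and 7.61% of UMIs there. The labels do not say which chamber lies where, and these markers were not used to tell chambers apart.

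The other genes showed weak patterns in the control section or none. Pla2g5 leaned inward, with 10.2 CPM in the outer, 15.8 in the middle and 17.2 in the inner zone and a log2 ratio of -0.75 (-1.31 to -0.20), rank 7204 of the 7221 genes. The intervals of Fndc5 at 0.05, Mrgprh at -0.05, Plekhh1 at -0.35, Smco1 at 0.38, Adora2a at 0.45 and 3425401B19Rik at -0.16 all reached across 0. For Smco1 the interval was -0.01 to 0.78, at rank 208 of the 7221 genes. Moran's I was 0.041 for Fndc5, 0.024 for Plekhh1 and 0.022 for Smco1, at ranks 428, 1084 and 1322 of the 19219 genes. It was 0.011 for both 3425401B19Rik and Mrgprh, at ranks 3471 and 3683. For Pla2g5 and Adora2a it was slightly below 0, at ranks 14622 and 17389.

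Between quadrants of the control section Fndc5 ran from 279 to 299 CPM and 3425401B19Rik from 100 to 112 CPM, both nearly even. Lrtm1 ran from 173 CPM at the lower left to 311 CPM at the upper right, and Plekhh1 from 8.58 CPM at the lower right to 16.4 CPM at the upper left. In the 126 control spots with the largest share of atrial marker UMIs, 3425401B19Rik was 0.41 higher on the log2 scale (0.18 to 0.64) than in the other spots, and the interval of every other gene reached across 0. With Sln and Bmp10 near 0, these spots cannot be called atrium. The score rests on Myl7, Myl4 and above all Kcnj3, which had 1137 of the 1445 atrial marker UMIs in the control section.

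Over 22 blocks of the control section with 25 to 64 spots each, Lrtm1 ran from 0 to 629 CPM with a median of 226, and Fndc5 from 237 to 347 CPM. The sum of the 8 genes followed Lrtm1 (Pearson r = 0.99 over blocks) more than Fndc5 (0.57), so likeness to the sum is mostly likeness to Lrtm1 over blocks. Among 2275 other genes with at least 1000 control UMIs, the most alike were the myosin light chain gene Myl12a at r = 0.91, the chaperone Hspb8 and the kinase Stk39 at 0.88, and the membrane protein gene Bsg at 0.86. Then came the calcium channel subunit Cacna2d1 at 0.85, the lipoprotein receptor Vldlr and prostaglandin D synthase Ptgds at 0.82, Ankrd23 and Ndrg2 at 0.79 and Acta1 at 0.78. The blocks share 1 library and neighbor each other, so these values are a description.

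Genes alike over blocks of the control section were not alike between the sections. Of these 10, Vldlr had a log2 ratio of -1.60 (-1.69 to -1.52) between transgenic and control section and Stk39 -1.29 (-1.39 to -1.19). Hspb8 was at -0.01 and Myl12a at 0.23, and Acta1 was higher by 2.62 (2.57 to 2.67). Lrtm1 itself, at -3.67, was chosen for its low ratio, so no comparison with these genes is drawn.

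In the transgenic section 451 of 924 spots held a UMI of the 7 lower genes, and the other 473, or 51.2%, held none. A UMI of these genes was seen in all but 14 of the 1256 control spots. The most in any transgenic spot was 6 UMIs, against 31 in the control, and 31 transgenic spots held 3 or more of the 7 genes.

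The remaining Lrtm1 UMIs still lay outward. The outer, middle and inner zones of the transgenic section held 133, 74 and 49 UMIs, or 33.5 CPM (28.0 to 39.7), 14.4 CPM (11.3 to 18.0) and 12.8 CPM (9.47 to 16.9). The log2 ratio of outer over inner zone was 1.39 (0.90 to 1.89), which placed Lrtm1 at rank 17 of 7590 genes with 200 UMIs or more in that section. In all, 0.672% of these genes were at least 2-fold higher in the outer zone. With the edge spots left out the ratio was 0.85. Fndc5 ran the other way, with 15.6, 14.9 and 24.6 CPM and a log2 ratio of -0.65 (-1.14 to -0.18), where the control section had shown 0.05. The intervals of the other 6 genes reached across 0. Fibroblast markers made up 0.536% of UMIs in the outer and 0.361% in the inner zone of the transgenic section, erythroid markers 0.127% and 0.799%, and ventricular markers 4.99% and 5.39%. The part of these cell types in the Lrtm1 and Fndc5 patterns was not tested.

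Set against the same zone of the control section, Lrtm1 was 11.1-fold lower in the outer, 21.7-fold lower in the middle and 5.70-fold lower in the inner zone. Fndc5 was 18.8-fold, 19.9-fold and 11.6-fold lower, and 3425401B19Rik 7.58-fold, 9.58-fold and 8.97-fold lower. The wall differs in shape between the sections, with 199 empty positions enclosed by tissue in the transgenic section and 92 in the control, so the zones match in rank of distance but not in anatomy.

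**Figure D4:**
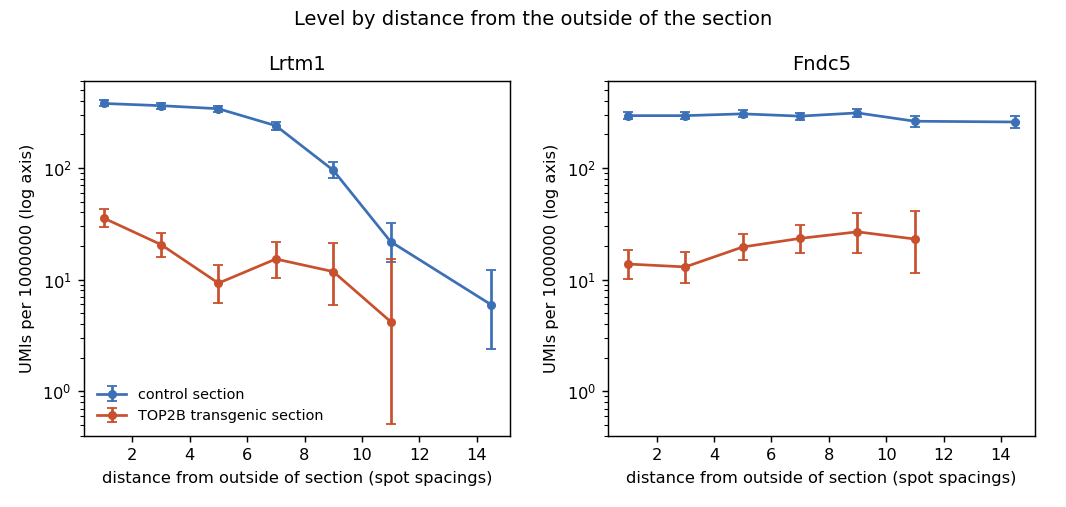
UMIs per 1000000 (log axis) of Lrtm1 (left) and Fndc5 (right) in bins of distance from the outside of the section, in spot spacings, for the control section (blue) and the transgenic section (red), with bars for 95% exact Poisson intervals. Control Lrtm1 drops from 378 CPM outermost to 5.97 CPM innermost while control Fndc5 stays level, and the transgenic values start at 35.6 and 13.8 CPM.

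Myh7, the slow myosin heavy chain of the fetal and stressed mouse ventricle, made up a share of the UMIs of Myh7 and Myh6, the adult fast form, that varied over the transgenic section. Of the transgenic spots 885 held at least 20 UMIs of the pair, and these were divided into 3 groups of 295 spots by the share of Myh7, with medians of 45.2%, 57.8% and 67.4%. The whole control section held 483 Myh7 and 265534 Myh6 UMIs, so all 3 groups lay far above its share. The comparison covers only the range among these groups. The remaining UMIs of the 7 lower genes lay in all of these groups, with 257 UMIs in the lowest, 253 in the middle and 230 in the highest. The levels were 57.7 CPM (50.9 to 65.2), 60.6 CPM (53.3 to 68.5) and 55.0 CPM (48.2 to 62.6). The log2 ratio of highest over lowest group was -0.07 (-0.33 to 0.19), against a median of 0.07 over 11720 genes with at least 20 UMIs in those groups.

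Gene by gene, Fndc5 had 82, 78 and 73 UMIs and a log2 ratio of -0.08 (-0.55 to 0.40), and Lrtm1 had 93, 83 and 80 UMIs and a ratio of -0.13 (-0.58 to 0.32). The Z-disc gene 3425401B19Rik had 44, 55 and 57 UMIs, with a ratio of 0.46 (-0.13 to 1.07). Adora2a had 53, 43 and 48 UMIs, with a ratio of -0.05 (-0.65 to 0.54). The interval of each of these 4 genes reached across 0. Mrgprh, Pla2g5 and Plekhh1 had 10 UMIs or fewer in every group, too few to place.

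Smco1, the coiled-coil membrane protein gene, had the lowest ratio. It had 23 UMIs in the lowest, 15 in the middle and 6 in the highest group, or 5.17 CPM (3.28 to 7.75), 3.59 CPM (2.01 to 5.92) and 1.44 CPM (0.527 to 3.13). Its log2 ratio was -1.85 (-3.43 to -0.51), so that its level was highest where the Myh7 share was lowest. Of the 11720 genes, 0.478% were at least 2-fold lower in the highest group and 7.89% had an interval wholly below 0. Of the 5 listed genes with at least 20 UMIs there, Smco1 alone met either mark. The highest group lay more at the tissue edge, with 46.1% edge spots against 16.3% in the lowest, and had fewer ventricular marker UMIs, at 4.69% against 5.57%. The Smco1 ratio was -1.68 without edge spots, -1.60 per ventricular marker UMI and -1.02 with 2 groups of spots in place of 3.

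**Figure D5:**
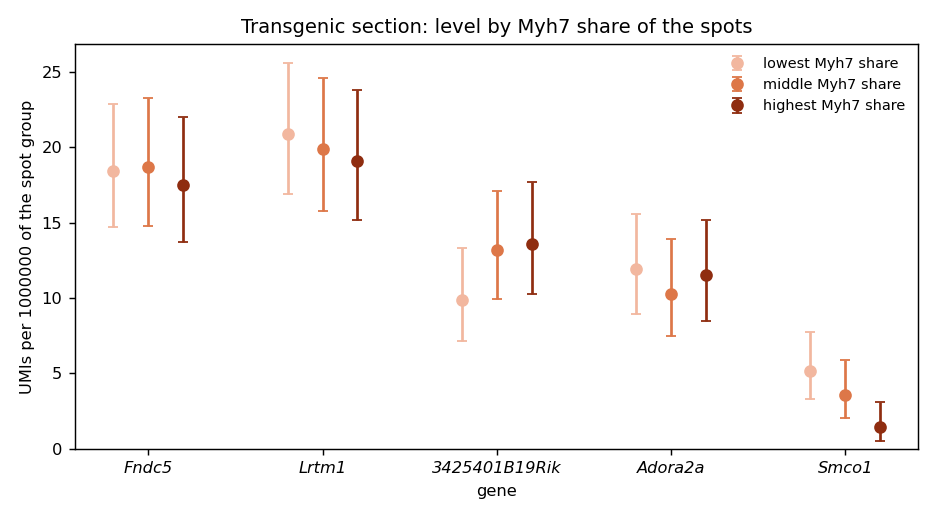
UMIs per 1000000 in the transgenic spots with the lowest, middle and highest Myh7 share, for the 5 genes with at least 20 UMIs in the lowest and highest groups, with bars for 95% exact Poisson intervals. The intervals of the groups overlap for Fndc5, Lrtm1, 3425401B19Rik and Adora2a, and for Smco1 the level goes from 5.17 CPM in the lowest to 1.44 CPM in the highest group.

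Whether the remaining UMIs lay in the same spots was looked at for each of the 7 lower genes against the sum of the others. Of the 5 of these genes with at least 20 transgenic spots both with and without a UMI, 3 had a ratio with the interval wholly above 0. The share was 7.77% of 12352 genes set against the sum of the 7 lower genes. These ratios are not independent of each other, since each gene is part of the sum for the next. In the 189 transgenic spots with a Fndc5 UMI the other 6 lower genes were at 49.5 CPM (41.6 to 58.3), and in the 735 spots without at 36.4 CPM (32.8 to 40.3), a log2 ratio of 0.44 (0.15 to 0.73). The ratio was 0.59 (0.16 to 0.99) for spots with Smco1 and 0.41 (0.11 to 0.70) for spots with 3425401B19Rik. For Lrtm1 it was 0.21 (-0.10 to 0.51), and the intervals of Mrgprh, Pla2g5 and Plekhh1 also reached across 0. In the control section the intervals of Smco1 at 0.09 (0.03 to 0.15) and Lrtm1 at 0.11 (0.04 to 0.19) lay wholly above 0. Those of Fndc5 at 0.07 (-0.12 to 0.25), 3425401B19Rik at 0.04 (-0.03 to 0.10) and Mrgprh at -0.04 (-0.11 to 0.03) reached across 0. Pla2g5 at -0.08 (-0.16 to -0.01) and Plekhh1 at -0.15 (-0.24 to -0.07) lay below 0. The share over all genes above is for the transgenic section, and none is given for the control section, where larger counts narrow the intervals. The remaining UMIs were also uneven by region. The 7 lower genes were at 77.5 CPM in the lower left quadrant of the transgenic section and at 46.3 to 52.3 CPM in the others. Fndc5 ran there from 10.2 CPM at the upper right to 28.4 CPM at the lower left. Ventricular markers made up 5.52% of UMIs in transgenic spots with Fndc5 and 5.05% in those without. The part of region and of ventricular markers in the ratios by spot was not tested.

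Relatives, genes of like symbol and partners of the 8 genes were looked at in lists. The background was the 15236 genes with at least 20 UMIs over both sections. Of that background 0.643% were at least 4-fold lower, 5.61% at least 2-fold lower and 13.7% at least 2-fold higher. Of 6 genes, the FNDC family members Fndc1, Fndc3a, Fndc3b and Fndc4 and the irisin receptor integrin pair Itgav and Itgb5, 0 were 2-fold lower and 2 were 2-fold higher, the integrin subunit Itgb5 at 1.93 (1.84 to 2.02) and Fndc1 at 1.49, with the median at 0.79 and the lowest, Fndc4, at -0.07.

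Of 15 PGC-1 and ERR regulators and targets, 4 were at least 2-fold lower and 0 higher, with a median of -0.39. These were the muscle regulator Perm1 at -1.91 (-2.04 to -1.79), the fatty acid receptor Ppara at -1.66, the PGC-1α gene Ppargc1a itself at -1.29 (-1.41 to -1.18) and cytochrome c, Cycs, at -1.06. The highest was Nrf1 at 0.14. Per ventricular marker UMI the median of this list was above 0, at 0.14.

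Among 13 Z-disc genes and partners of FHL2 and calcineurin, Fhl2 stood out at -2.44 (-2.48 to -2.40), from 31669 to 5268 UMIs. It encodes the partner of the 3425401B19Rik protein and was the only gene of this list at least 4-fold lower. The Z-disc genes Myoz2, at -1.38, and Ldb3, at -1.01, were also 2-fold lower. Fhl1 at 1.21 and Nfatc4 at 1.03 were 2-fold higher, and the median was 0.38.

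Genes that share the Plekhh, Smco or Lrtm symbol and other leucine-rich repeat genes were split, with 3 of 9 at least 2-fold lower and 2 higher around a median of -0.27. This median was -1.04 over genes with at least 200 UMIs and 0.25 per ventricular marker UMI. The lower ones were the muscle gene Lrrc39, at -1.44 (-1.58 to -1.30), Smco4, at -1.37, and Lrrc3b, at -1.10. The direct relative Lrtm2 had 15 and 33 UMIs, Smco2 16 and 29, and their ratios of 1.29 (0.37 to 2.27) and 1.01 (0.08 to 1.99) rest on counts near the stray signal.

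The signaling families held no gene that was 2-fold lower and passed 20 UMIs, apart from the listed ones. Several had counts within the range of stray probe signal, where a loss could not show. Examples were Mas1 with 18 and 11 UMIs and Pla2g2f with 13 and 9 in the control and transgenic sections. Of 15 phospholipases A2 and related genes, 0 were 2-fold lower and 1 was 2-fold higher, the plasma enzyme Pla2g7 at 2.10 (1.64 to 2.59), with the median at -0.03 and the lowest, Pla2g4b, at -0.85. Of 5 Mas-related receptors with enough UMIs, 0 were 2-fold lower and 1 higher, Mrgpre at 1.19 with 17 and 35 UMIs, and the lowest was Mrgprg at -0.85. Among 15 adenosine receptors and genes of adenosine handling, 3 were at least 2-fold higher and 0 lower, with a median of -0.04. These 3 were Nt5e at 1.96 (1.76 to 2.17) and Entpd1 at 1.75 (1.57 to 1.94), the enzymes that make adenosine from extracellular nucleotides, and Ada, which breaks it down, at 1.68 (1.17 to 2.21). The cardiac receptor Adora1 was at 0.93 (0.73 to 1.14), and the lowest was the phosphodiesterase Pde4d at -0.96. Per ventricular marker UMI the medians of the phospholipase and adenosine lists were 0.49 and 0.48.

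Of 29 genes of adult cardiomyocyte maturation, 22 were at least 2-fold lower, 8 of them at least 4-fold, and 0 were 2-fold higher, with a median of -1.48. These counts are a description, since the list was chosen with earlier results of these data known. It holds Ucp3, Myh6, Myl2 and Tnni3, which the study reported as lower. The lowest was the uncoupling protein gene Ucp3 at -5.74 and the highest Bin1 at 0.78. Kcnip2, a subunit of the transient outward potassium channel, was at -3.72 (-3.93 to -3.52), and its remaining UMIs were also level over the groups by Myh7 share, with 72, 67 and 66 UMIs.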

How the data were processed

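Formalin-fixed mouse hearts were cut at 5 µm, stained and assayed with Visium CytAssist, in which probe pairs for each gene are captured on barcoded spots. The values the authors deposited are raw UMI counts for each gene in each spot, made per the file headers with Space Ranger 2.0.0; per the labels the build was GRCm39 (mm39). Moran's I is a score per gene that the authors deposited, and it was used as given. Summed counts matched the deposited totals for every gene, and 23 genes not expected in heart gave the level of stray probe signal.

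The UMIs of a section were added up over its spots and given per 1000000 (CPM) with exact Poisson intervals, shares of spots with Clopper-Pearson intervals and ratios with exact conditional binomial intervals, all at 95%. They cover counting error only. With 1 section per condition no test across genes was run, and spots were not treated as replicates. Shares of spots were also computed after thinning each spot to 8134 UMIs, so that 140 control and 78 transgenic spots with fewer dropped out. Distance from the outside was measured to the nearest empty array position not enclosed by tissue. TMM and size factors came from edgeR 4.0.16 and DESeq2 1.42.0 and served only as alternative scalings of the counts. Intervals and distance zones were run on simulated Poisson counts, with a ring drawn on the same zones. Such a run checks the calculation and not the spread between spots or animals. Tissue images, cluster labels and deposited p values were not used.

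The 8 genes and the gene lists were chosen with earlier results of these data known. Named beside the 8 genes are the highest and lowest of each list, list genes at least 2-fold changed in the family and pathway lists, the 10 genes most like their sum across blocks of 8 by 16 array positions, and Myh6, Myh7 and Top2b. Fmo2, Acta1, C3, Irx5 and Kcne1, the marker genes and Kcnip2 and Adora1 were named after their values were seen. Alternatives were other scalings, other sets of spots, a pseudocount of 1 CPM, other UMI minimums and other divisions of the tissue.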

Additional observations from a re-analysis of the deposited data

How the results depend on the processing

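No paired analysis was possible because each condition has 1 section. The sum of the 8 genes had a log2 ratio of -3.42 between transgenic and control section. It was -3.58 with TMM factors, -3.57 with DESeq2 size factors, -2.89 per ventricular cardiomyocyte marker UMI and -3.66 without Adora2a, and under the other alternatives it stayed within its counting interval. The number of the 8 genes at least 8-fold lower was 6, and 4 to 7 under the alternatives. The share was 0.0919% of the 15236 genes with at least 20 UMIs over both sections. The choice of the 8 genes for low transgenic counts fixes this number, so it is a description. Each of the 7 lower genes stayed lower and Adora2a stayed higher under all 10 alternatives run for them. Per ventricular marker UMI the median of the PGC-1 and ERR list turned from -0.39 to 0.14 and that of the maturation list was -0.96, and the latter was -1.20 in the 50% of spots with the highest marker share. Myl2, Mb and Ckm stand in both the maturation list and the marker denominator, so the shift of that list is partly built in. The same denominator turned the medians of the PLEKHH, SMCO and LRTM list from -0.27 to 0.25, of the phospholipases from -0.03 to 0.49, of the adenosine list from -0.04 to 0.48 and of the Mas receptors from -0.15 to 0.38. With a minimum of 1 or 200 UMIs in place of 20 the first of these was -0.63 or -1.04 and that of the Mas receptors -0.56 or 0.58, and the latter was 0.30 as a mean over spots. The markers themselves were 1.44-fold lower in the transgenic section, which sets the size of this shift. The share of transgenic spots with a UMI of any of the 8 genes was 55.3%, and 40.5% after thinning. The alternatives for the Lrtm1 gradient were chosen after seeing the data. Its control ratio of 2.34 became 2.14 without edge spots and 1.27 with 2 zones in place of 3, and its transgenic ratio of 1.39 became 0.85 without edge spots. The Smco1 ratio over groups by Myh7 share went from -1.85 to -1.02 with 2 groups in place of 3. The cause was not tested. Counts of 10 to 44 UMIs limit what can be said of where Plekhh1, Pla2g5, Mrgprh and Smco1 remained, and no alternative stands in for further hearts.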
